A study of Mus musculus with 16 samples.

Results

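Marrow adipocyte genes were followed in bone marrow of 16 mice, as 10 genes named for the fat cell: Adipoq, Fabp4, Lpl, Plin1, Plin4, Cfd, Retn, Cidec, Pparg and Scd1. Every probe whose gene name on the array equalled one of these was taken, which gave 13 of the 55681 probes on the array. Lpl, Retn and Cidec had 2 probes each, and the Pparg probe was spotted 10 times. Of the 13 probes, 10 probes of 8 genes were kept for testing, the requirement being a signal well above background in 6 or more of the 8 mice of one group. Plin1 and both Cidec probes were not kept.

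Total RNA of whole bone marrow was measured on 1-colour Agilent arrays, 1 array per mouse. The 8 KO chimeras were C57BL/6J recipients given 950 rad and then a retro-orbital injection of whole marrow, with donors of the strain Adrb1tm1BkkAdrb2tm1Bkk/J, which lack the beta-1 and beta-2 adrenergic receptors. The ratio was 1:4, knockout to C57BL/6J, and the sources used here do not say what that ratio counts. The 8 controls carry the same label of irradiated C57BL/6J mice (950 rad), and no donor is named for them. Recovery lasted 2 to 3 months. The knockout is carried by donor cells, whereas stromal cells after such a transfer are in large part the host's, and receptor loss cannot be told apart from the donors' background or from grafting.

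Marrow adipocytes arise from mesenchymal stromal cells of the marrow, not from blood stem cells, and they increase after irradiation. Noradrenaline from sympathetic nerves acts on beta adrenergic receptors of fat cells and raises cAMP, which drives the breakdown of stored triglyceride. Adipoq, Plin1, Plin4 and Cidec are little expressed by blood cells, whereas Fabp4, Lpl, Pparg and Scd1 are also used by macrophages, vessel cells or lymphocytes. In whole marrow, fewer cells of a type and less RNA per cell cannot be told apart.

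A probe measures a short stretch of the transcript, and 4 probe sequences are shown to make clear which stretches were read for a fat cell hormone (Adipoq) and for the 3 genes with a second probe (Lpl, Retn and Cidec). The other probes, that of Scd1 among them, are not shown. They are the 60-base probe sequences of the array files, written 5′ to 3′, each with at least 1 reading frame free of stop codons. The Adipoq probe lies at chr16:23157576-23157635 on the plus strand of mouse build mm9, the Lpl probe at chr8:71425050-71425109 (plus), the Retn probe at chr8:3657312-3657371 (plus) and the Cidec probe at chr6:113378116-113378175 (minus). Exon annotation of that build was not used here.
Adipoq: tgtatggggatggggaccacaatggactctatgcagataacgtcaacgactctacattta
Lpl, dimmer probe: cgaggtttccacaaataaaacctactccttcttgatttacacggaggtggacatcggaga
Retn, brighter probe: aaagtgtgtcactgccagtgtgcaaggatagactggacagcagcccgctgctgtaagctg
Cidec, brighter probe: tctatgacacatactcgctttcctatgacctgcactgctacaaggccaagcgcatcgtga

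The 75th percentile of the processed signal, to which each array was scaled, spanned 127 to 545 among KO chimeras, against 231 to 558 among controls. Levels below are log2 signal relative to that percentile, so that 0 is the 75th percentile of the array. Differences are KO chimera minus control with the SE of a limma fit over all 32689 kept probes, and adjusted p-values are Benjamini-Hochberg values over those probes. The 6 slides included 5 that carried both groups, and each of the 2 scan days covered 4 KO chimeras and 4 controls. Replicates are separate mice, and their number limits the precision of every value.

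Of the 4 genes little expressed by blood cells, Plin1 and Cidec were at or near background in both groups, and Adipoq and Plin4 were measured. Plin1, the coat protein that guards the droplet of fat cells, was well above background on 2 of 8 KO chimera arrays and on 0 of 8 control arrays. Its values had a lowest, median and highest of -5.96, -5.31 and -4.33 in KO chimeras, against -6.42, -5.28 and -4.64 in controls. Cidec, which helps droplets to fuse, was well above background with its brighter probe on 2 KO chimera and 2 control arrays, and with its dimmer probe on 0 and 0. The brighter Cidec probe had a lowest, median and highest of -6.21, -4.63 and -3.44 in KO chimeras, against -5.64, -5.07 and -4.30 in controls. The groups overlapped for all 3 of these probes, and no fold is given for signals this dim.

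Adipoq, the fat cell hormone adiponectin, was measured at a low level. Its lowest, median and highest values were -4.22, -3.35 and -2.28 in KO chimeras, against -4.09, -3.82 and -3.23 in controls. KO chimera 7 was the highest mouse, KO chimera 2 the lowest and not well above background, and the groups overlapped. The difference was 0.37 ± 0.21 (SE, n = 8 mice per group, adjusted p from limma = 0.233). The SD between mice was 0.59 in KO chimeras and 0.25 in controls. Without KO chimera 7 the difference was 0.21, with normexp background correction and quantile normalization 0.15, within scan day 1 0.087 and within scan day 2 0.65.

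Plin4, another droplet coat protein, had a lowest, median and highest of -3.12, -2.74 and -2.27 in KO chimeras, against -3.48, -2.91 and -2.61 in controls. Its difference was 0.21 ± 0.15 (adjusted p from limma = 0.325), positive on 5 of 5 slides, and the groups overlapped. Over the alternative settings the Plin4 difference ran from 0.053 (normexp background correction and quantile normalization) to 0.33 (array brightness as a covariate). Cfd, the protease adipsin of the complement system, averaged -3.19 ± 0.39 in KO chimeras and -3.15 ± 0.17 in controls (SD, n = 8 mice per group). Its difference was -0.041 ± 0.15 (adjusted p from limma = 0.879), and its sign was negative within scan day 1 (-0.32) and positive within scan day 2 (0.24).

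Retn, the fat cell hormone resistin, was read by 2 probes that gave differences of opposite sign. The brighter Retn probe had a lowest, median and highest of -1.01, -0.55 and -0.25 in KO chimeras, against -1.25, -0.87 and -0.48 in controls. The dimmer one, at chr8:3659757-3659816, had -2.03, -1.45 and -0.71 in KO chimeras, against -1.54, -1.16 and -0.78 in controls. KO chimeras lay on the high side with the first probe and on the low side with the second, with overlap in both. The differences were 0.27 ± 0.13 (adjusted p from limma = 0.152) and -0.24 ± 0.18 (adjusted p from limma = 0.361). The gap between the probes averaged 0.85 in KO chimeras and 0.34 in controls (two-sided exact permutation test over 8 and 8 mice, p = 0.0671). Across the 16 mice, with group means removed, the relation between the 2 probes was negative and did not pass (Pearson's r = -0.31, permutation p = 0.246; Spearman's rho = -0.43, permutation p = 0.117). Their starts are 2445 bases apart, and the files list 2 RefSeq transcripts for the first probe and 1 for the second, so that direction for Retn depends on the probe.

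Fabp4, a carrier of fatty acids in fat cells, macrophages and capillary endothelium, was among the bright genes. Its lowest, median and highest values were 0.24, 1.18 and 1.87 in KO chimeras, against 0.28, 0.73 and 1.85 in controls. The 2 groups covered nearly the same range. The difference was 0.22 ± 0.23 (adjusted p from limma = 0.545), and it was -0.050 within scan day 1 and 0.49 within scan day 2.

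Lpl, the lipase that frees fatty acids from lipoproteins in blood, had the difference of greatest size among the kept member probes, with its brighter probe. At chr8:71430267-71430326 that probe had a lowest, median and highest of -0.072, 0.69 and 1.83 in KO chimeras, against -0.32, 0.15 and 0.84 in controls. KO chimeras 1 and 2, at 1.83 and 1.66, lay far above every control and KO chimeras 3 and 4 just above, and 2 KO chimeras lay below the control median. The difference was 0.55 ± 0.26 (adjusted p from limma = 0.144), positive on 5 of 5 slides. The dimmer Lpl probe differed by 0.28 ± 0.30 (adjusted p from limma = 0.562), and the 2 probes varied together over the 16 mice (r = 0.69, permutation p = 0.00813; rho = 0.55, permutation p = 0.0387). Without the 2 mice farthest from the median that r was 0.28, so its size depends on those mice. It was 0.66 within scan day 1, 0.97 within scan day 2 and 0.77 with array brightness removed.

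The brighter Lpl probe was high on dim arrays. Its r with the log2 75th percentile of the array was -0.75 over 16 mice, group means removed (permutation p = 0.00311, adjusted over the 13 probes 0.0202). With array brightness as a covariate the Lpl difference was 0.29. The dimmer Cidec probe had r = -0.74 (adjusted permutation p = 0.0112), but it was well above background on 0 of 8 arrays in each group. Each level is scaled by that same percentile, so both sides of these r share it. These r therefore cannot tell array brightness apart from the scaling, above all for a probe at background. The other 11 probes had adjusted p-values of 0.0507 or more, and the dimmer Retn probe (r = -0.66) and Plin4 (r = 0.62) stood at 0.0507. With array brightness as a covariate the dimmer Retn probe differed by -0.39 (adjusted p from limma = 0.0690). Plin4 then differed by 0.33 (adjusted p from limma = 0.0820). The part of array brightness in these values was not tested further.

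Pparg, the nuclear receptor that drives fat cell formation, differed by 0.12 ± 0.12 (adjusted p from limma = 0.539). Its lowest, median and highest values were -0.78, -0.33 and 0.021 in KO chimeras, against -0.996, -0.46 and -0.40 in controls. The other controls lay close together, and control 2 lay apart, below all KO chimeras. The sign was negative within scan day 1 (-0.081) and positive within scan day 2 (0.32).

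Scd1, the desaturase that makes monounsaturated fatty acids, was the member that passed the test, and it was lower in KO chimeras. Its lowest, median and highest values were 0.25, 1.03 and 1.29 in KO chimeras, against 0.88, 1.43 and 2.08 in controls. KO chimeras 3, 4 and 6, at 0.88, 0.53 and 0.25, lay below every control, and control 3 was the one control below the KO chimera mean of 0.93. Scd1 fell by 0.52 ± 0.17 on the log2 scale (SE, n = 8 mice per group, adjusted p from limma = 0.0334), or 0.70-fold. An exact two-sided permutation test over the 16 mice gave p = 0.00808. The difference was negative on 5 of 5 slides, between -1.37 and -0.037, and was -0.72 within scan day 1 (adjusted p from limma = 0.173) and -0.33 within scan day 2 (adjusted p from limma = 0.134). The call was lost without any 1 of KO chimeras 3, 4 and 6 or controls 1, 2, 4 and 6, with adjusted p-values from limma between 0.0524 and 0.0641.

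**Figure D1:**
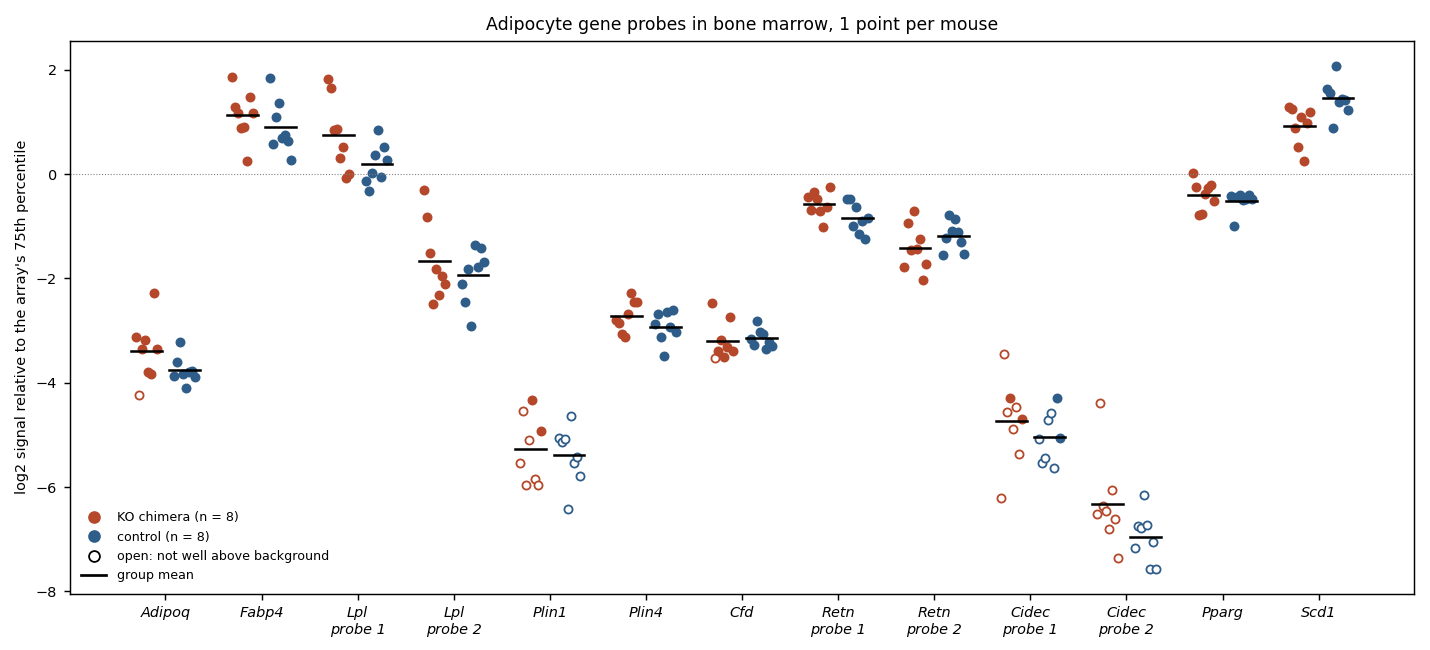
Log2 signal relative to the array's 75th percentile (vertical axis) for the 13 probes of the 10 genes, 1 point per mouse, with KO chimeras left and controls right of each name and lines at group means. Open points mark arrays not well above background, which include all 16 for the dimmer Cidec probe (probe 2 is a gene's dimmer probe), and the Scd1 mean is 0.93 in KO chimeras and 1.45 in controls.

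Counted over the kept probes, 0 of 10 member probes rose in KO chimeras, where 11.4% of all kept probes did, and 1 of 10 fell, where 12.2% did. In either direction 23.5% of all kept probes passed, and 34.9% had an unadjusted p under 0.05, as 1 of 10 member probes did. Within scan day 1 alone 7.51% of all probes passed, and within scan day 2 alone 10.6%, with 0 member probes on either day. The groups overlapped for all 13 member probes, and 6.34% of all kept probes had groups that did not overlap. The median difference of the kept member probes was 0.22, beside -0.012 over all kept probes, and the median size of the difference was 0.26 beside 0.20. That median of 0.22 was 0.098 without KO chimera 1, 0.14 without control 4, 0.13 with normexp and quantile normalization and 0.018 within scan day 1. The shares of members that passed are near or under those of all probes.

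**Figure D2:**
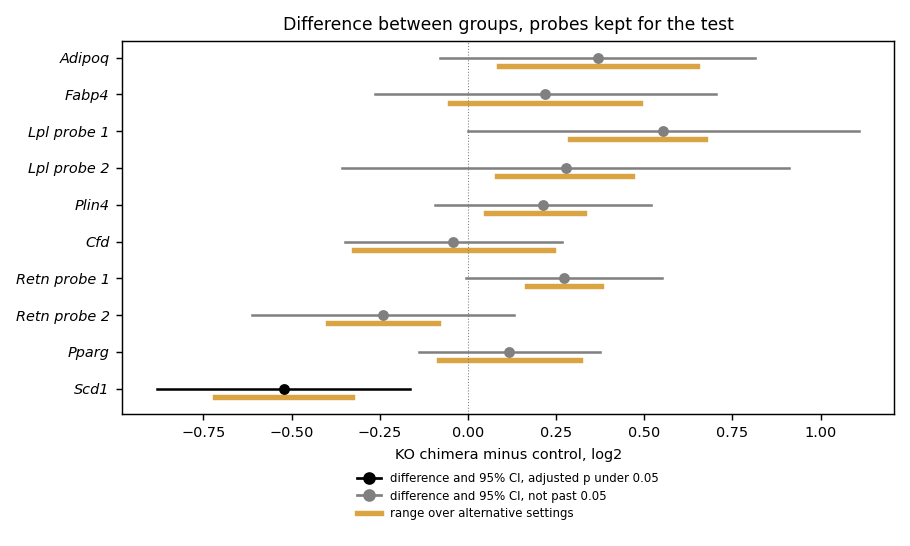
Difference between KO chimeras and controls (horizontal axis, log2) for the 10 kept probes, with points and thin bars for the fitted difference and its 95% confidence interval, and orange bars for the range over the alternative settings. Scd1 is the probe drawn in black, at -0.52, and the orange bars of Fabp4, Cfd and Pparg reach both sides of 0.

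No pair of members passed a test of covariation from mouse to mouse. Each of the 8 tested genes was read at its brightest probe, group means were removed, and the 28 pairs were compared over the 16 mice. Of these, 17 had positive r, and over all pairs of the 22344 genes with a value on every array 51.6% did. The median r was 0.15, beside 0.016 over all those pairs. None of the 28 pairs passed after Benjamini-Hochberg adjustment of the permutation p, and 4 had an unadjusted p under 0.05. Within KO chimeras and within controls alone the count was 0 and 0.

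Adipoq and Cfd, both secreted by fat cells, had the highest r of any pair. It was 0.68 (permutation p = 0.0187, adjusted 0.262; rho = 0.46, permutation p = 0.0869), with 0.72 in KO chimeras and 0.47 in controls. The r was 0.73 within scan day 1 and 0.64 within scan day 2, and 0.54 without KO chimeras 2 and 7. Fabp4 and Scd1 had r = 0.61 (permutation p = 0.0174, adjusted 0.262; rho = 0.60, permutation p = 0.0226), and 0.45 without the 2 mice farthest from the median. The other 2 pairs with an unadjusted p under 0.05 were Cfd with Fabp4 (r = 0.52) and Retn with Fabp4 (r = 0.52), and without the 2 farthest mice these were 0.18 and 0.12. Adipoq and Plin4, both among the genes little expressed by blood cells, had r = -0.01, with -0.44 within scan day 1 and 0.47 within scan day 2.

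**Figure D3:**
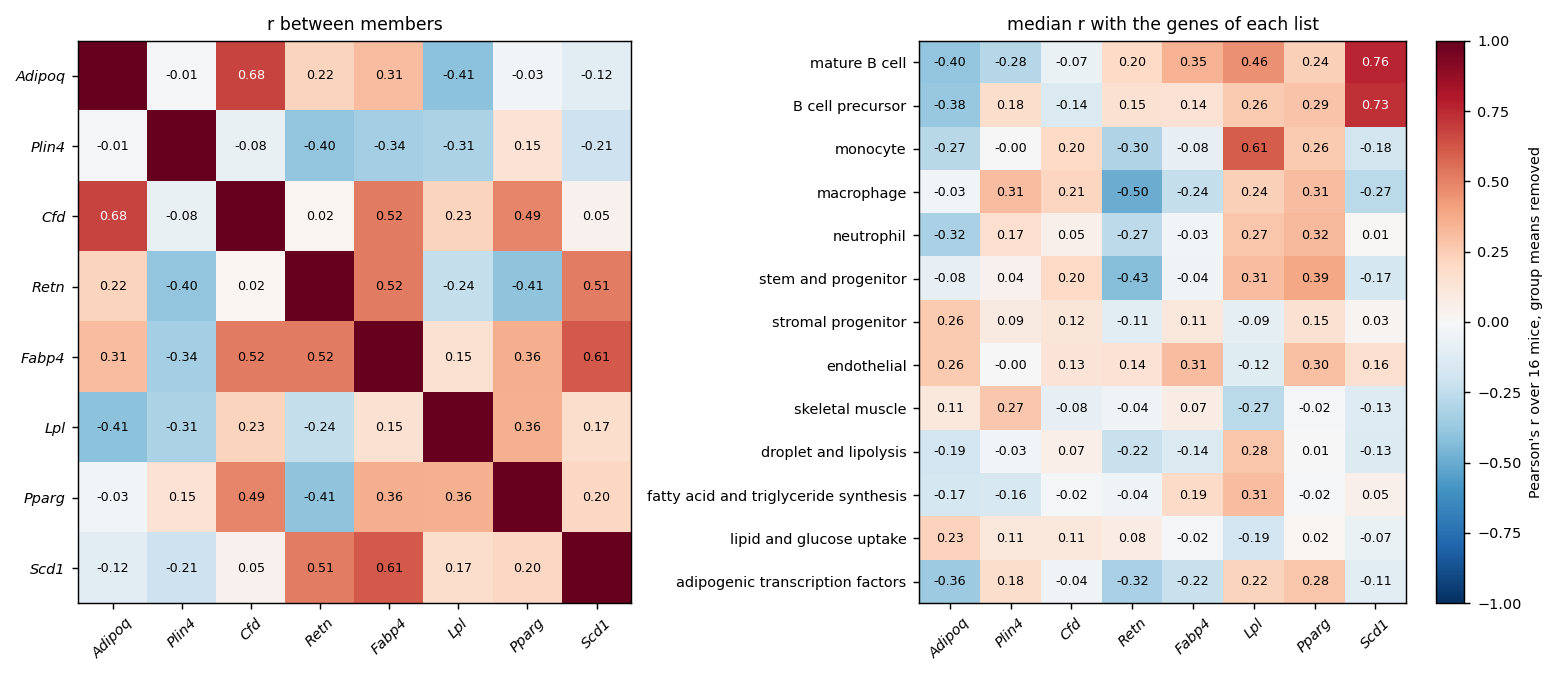
Pearson's r over 16 mice with group means removed, for pairs of members (left) and as the median r of each member with the genes of a marker or pathway list (right, lists down the page), on a colour scale from -1 to 1. Adipoq with Cfd stands at 0.68 on the left, and Scd1 with mature B cell genes stands at 0.76 on the right.

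The genes most like each member differed from member to member. For Scd1, the 3 highest r were those of Foxo1 (0.94), Irf4 (0.94) and Cxcr5 (0.93), where the range holding 95% of all genes ran from -0.57 to 0.62. Foxo1 and Irf4 are transcription factors with known roles in B cells, and Cxcr5 is the chemokine receptor of follicular B cells. Without any 1 mouse these r stayed at 0.90 or above, and within scan day 2 they were 0.64, 0.92 and 0.80.

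Scd1 levels therefore were set beside B cell genes, in 2 lists chosen after these values were seen. Its median r was 0.76 with 10 mature B cell genes, from 0.33 to 0.91, all positive. Within scan day 1 that median was 0.91 and within scan day 2 it was 0.40. With 7 genes of B cell precursors the median was 0.73, and within scan day 2 it was -0.03. Ms4a1, which encodes the B cell antigen CD20, had r = 0.91 with Scd1, with 0.92 in KO chimeras and 0.93 in controls. Of all 23114 genes read at 1 probe each, 10.2% rose and 12% fell. Of the mature B cell genes, 0 rose, 2 fell (Bank1 and Cr2) and 8 did not pass. Their summed level, as a multiple of the 75th percentile, was 72.8 to 141 in KO chimeras, against 74.8 to 157 in controls. Of the precursor genes, 4 rose and 0 fell, and their summed level was 27.3 to 87.5 in KO chimeras, against 6.31 to 55.8 in controls. The 4 precursor calls (Vpreb1, Igll1, Dntt and Il7r) were lost within scan day 1, and the Bank1 and Cr2 calls within either scan day. The Dntt call was also lost in 7 of the 16 fits that left out 1 mouse. The part of B cells in the Scd1 difference was not tested.

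For Lpl, the 3 genes of highest r were Zfp14 (0.93), Cyp27a1 (0.92) and Fcgrt (0.92). Cyp27a1 is a sterol hydroxylase active in macrophages, and Fcgrt encodes the neonatal Fc receptor, which macrophages also make. Without any 1 mouse the lowest of these r was 0.886. The median r of Lpl with 6 monocyte genes was 0.61, all 6 positive, and with 8 macrophage genes it was 0.24. With the 10 mature B cell genes it was 0.46, 10 of 10 positive. The range holding 95% of all genes ran from -0.77 to 0.72 for Lpl, so these medians lie inside it. With array brightness removed, the monocyte, macrophage and mature B cell medians were 0.53, 0.51 and 0.41. Within scan day 1 they were 0.34, 0.039 and 0.77, and within scan day 2 0.83, 0.31 and 0.69. Of all genes read at 1 probe each, 10.2% rose and 12% fell. Of the monocyte genes 2 rose and 0 fell (summed level 248 to 428 in KO chimeras, 229 to 365 in controls). Cd14 rose by 2.26 and Ccr2 by 0.67. Apart from the fits that left out 1 mouse, the Ccr2 call was lost in 5 settings and the Cd14 call in 0. Of the macrophage genes 0 rose and 6 fell, with a median difference of -0.93 (summed level 6.94 to 12.1 in KO chimeras, 11.1 to 18.6 in controls). Cd5l differed by -1.50, Axl by -1.13 and C1qc by -1.58. Within scan day 1 the Axl, C1qa, C1qc, Mrc1 and Vcam1 calls were lost, and the Cd5l call was lost under no setting. A dimmer Vcam1 probe differed by 0.24 and did not pass. The part of these cells in the values of Lpl, Fabp4 and Pparg was not tested.

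For Adipoq, the 8 genes of highest r were an unnamed probe (0.87), Clstn1 (0.84), Calm3 (0.82), B3gnt9 (0.81), an unnamed transcript (0.80), 4933402N22Rik (0.80), Plcxd1 (0.78) and Cxcl5 (0.78). For 7 of these 8, r was lowest without KO chimera 7, at 0.54 to 0.73. None of the other members was among them. Over 7 stromal progenitor genes the median r with Adipoq was 0.26, from -0.37 to 0.56, with 4 of 7 positive and medians of 0.023 within scan day 1 and 0.30 within scan day 2. The highest of these was that of Cxcl12, the chemokine of the marrow stroma, at 0.63 in KO chimeras and 0.24 in controls. With 7 endothelial genes the median was also 0.26, with 5 of 7 positive. It was -0.40 with 10 mature B cell genes, -0.62 within scan day 1 and -0.60 within scan day 2. With 7 B cell precursor genes it was -0.38, with 8 neutrophil genes -0.32 and with 6 monocyte genes -0.27. Each of these blood cell lists had 0 positive r, whereas 4 of 8 macrophage genes were positive (median -0.03). The range over all genes, of the kind given above for Lpl, ran from -0.55 to 0.53 for Adipoq. The list medians over all mice lie inside that range. The part of the cells of these lists in the Adipoq values was not tested.

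For Plin4 the gene of highest r was the kinase Mapk8 (0.94), for Pparg it was Pheta1 (0.91), for Fabp4 BC057675 (0.80), and for Retn and Cfd unnamed transcripts (0.90 and 0.78). The next were H2ab2 and an unnamed transcript for Plin4, Gngt2 and the mitochondrial ATP6 for Pparg, an unnamed transcript and Ccl17 for Fabp4, 2 unnamed transcripts for Retn, and Gm4890 and Morn1 for Cfd. No member was among the genes named for another.

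**Figure D4:**
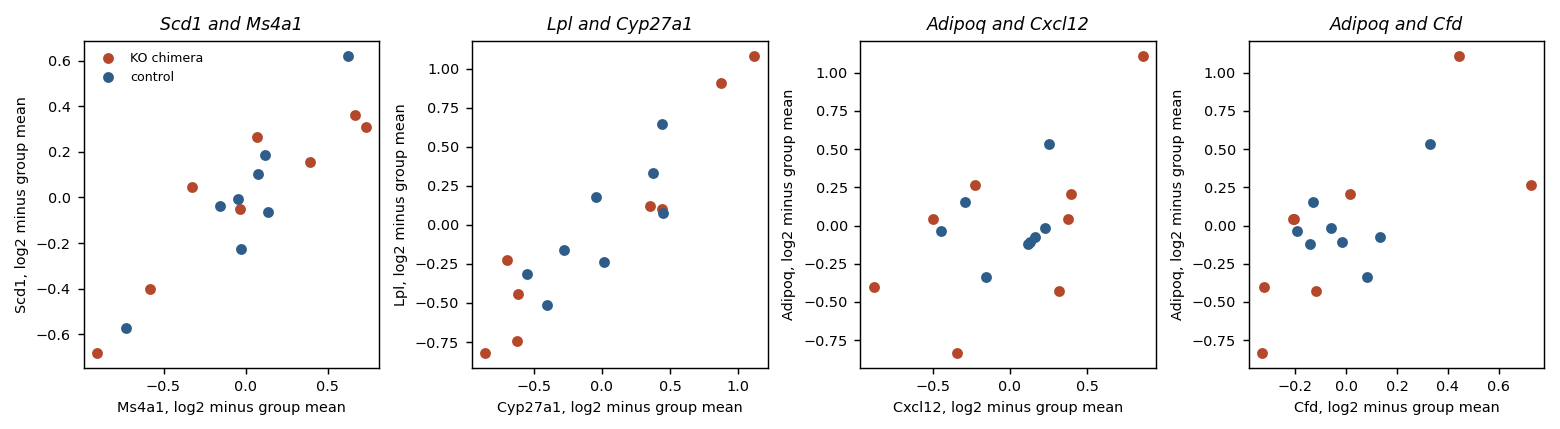
Log2 level minus its group mean in 8 KO chimeras and 8 controls, 1 point per mouse, for Scd1 against Ms4a1 (r = 0.91), Lpl against Cyp27a1 (r = 0.92), Adipoq against Cxcl12 (r = 0.56) and Adipoq against Cfd (r = 0.68). In both Adipoq panels 1 KO chimera lies above the rest, at more than 1 log2 unit over its group's mean.

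Other genes of fat metabolism were read at 1 probe each, and 10.2% of all 23114 genes so read rose and 12% fell, 22.3% in all. Of 10 droplet and lipolysis genes, 2 rose, 0 fell and 8 did not pass. Plin2, the droplet coat of most cell types, rose by 0.47 (adjusted p from limma = 0.0147). G0s2, an inhibitor of triglyceride lipase, rose by 0.34 (adjusted p from limma = 0.0491), a call lost in 10 of the 16 fits that left out 1 mouse. Pnpla2, that lipase, differed by -0.20 (adjusted p from limma = 0.0515) and Lipe, the hormone-sensitive lipase, by 0.091 (adjusted p from limma = 0.561).

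Of 16 genes of fatty acid and triglyceride synthesis, 2 rose, 4 fell and 10 did not pass. Lpin1, a phosphatidate phosphatase, fell by 1.75 and Srebf1, a transcription factor of lipid synthesis, fell by 0.80, while Acacb, a carboxylase of mitochondria, rose by 1.44. Mlxipl, a transcription factor that answers to glucose, rose by 0.30, a call lost in 2 of the 16 fits that left out 1 mouse and in 7 other settings; its dimmer probe rose by 0.69 (adjusted p over all probes from limma = 0.00757). Scd2 and Scd3, relatives of Scd1, fell by 0.50 and by 0.42, but 2 dimmer Scd3 probes differed by 0.12 and 0.14 and did not pass.

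Of 10 genes of lipid and glucose uptake, 1 rose, 3 fell and 6 did not pass. Fabp5, a fatty acid carrier of many cell types, rose by 0.58. Cd36, Slc27a1 and Vldlr, which take up fatty acids or lipoproteins, fell by 0.83, 1.36 and 1.05. Vldlr was well above background on 3 of 8 KO chimera arrays and on 6 of 8 control arrays, so its difference is read largely at background. The 3 calls were lost in 9, 10 and 12 of the 16 fits that left out 1 mouse.

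Of 8 adipogenic transcription factors, 1 rose (Cebpd, 0.30) and 1 fell (Ppard, -0.42). The Cebpd call was lost in 11 of the 16 fits that left out 1 mouse and the Ppard call in 0. Of 8 other adipokines and receptors, 0 rose and 1 fell, which was Ccdc80 at -2.93. Ccdc80 was well above background on 4 of 8 KO chimera arrays and on 8 of 8 control arrays. Its difference ran from -3.29 to -1.36 over the alternative settings. Of 6 brown fat genes 2 could be tested, and neither passed. Of 7 stromal progenitor genes 1 rose, which was Cxcl12 (0.62, adjusted p from limma = 0.0411), and that call was lost in 8 of the 16 fits that left out 1 mouse. A dimmer Cxcl12 probe rose by 0.90 (adjusted p over all probes from limma = 0.0119), a call lost in 0 of those fits. Summed over its tested genes, that list was 19.0 to 22.8 in KO chimeras, against 13.3 to 23.2 in controls. Of 7 endothelial genes 1 rose (Stab2, 4.99) and 2 fell (Vwf, -1.28, and Cdh5, -0.91). Cdh5 was well above background on 5 of 8 KO chimera arrays and on 8 of 8 control arrays. Of 8 stem and progenitor genes 1 rose (Procr, 0.85) and 5 fell, among them Kit (-0.90), Meis1 (-0.63) and Gata2 (-0.56). The Cdh5 and Procr calls were lost within either scan day, and the Meis1 and Gata2 calls within scan day 2. Of 8 neutrophil genes 0 rose and 0 fell, and of 3 skeletal muscle genes 0 rose and 0 fell. These counts hold for the brightest probe of each gene. For 8 genes of the lists a dimmer probe passed, over all probes, where the brightest did not, and all 8 were higher in KO chimeras. They were Abhd5 and Mgll (droplet and lipolysis), Acsl1 (uptake), H2-Ob (mature B cells), Csf1r and Cx3cr1 (monocytes), and Mpo and Camp (neutrophils), with differences between 0.24 for Acsl1 and 1.08 for Mpo. The Mgll, Acsl1 and Camp calls were lost in 11, 9 and 4 of the 16 fits that left out 1 mouse, and the others in 0. Further dimmer probes of Abhd5, Cx3cr1 and H2-Ob differed by -0.14, -0.25 and -0.068. Those of Csf1r (0.27) and Mgll (0.28 and 0.19) were positive, and none of these further probes passed. Of all kept probes 11.4% rose and 12.2% fell, and the share among dimmer probes of these lists was not worked out.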

How the data were processed

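The deposited scanner files give background-subtracted spot intensity (Agilent Feature Extraction 10.1.1.1 per the file headers, 10.7 in the submitters' processing notes). The authors' deposited value table holds log2 values, and it served as an alternative; its columns correlated with the log2 scanner signal at r = 0.991 or more, so its scale and direction are known, and its column medians were 4.98 to 5.00 in KO chimeras and 5.00 in controls. The sources used here do not state its centring.

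Each processed signal was expressed as log2 of its ratio to the 75th percentile of non-control spots on that array, outlier spots were left out, and spots of a probe were averaged. Groups came from sample titles. Probes were fitted with limma 3.58.1 in R 4.3.3 (two-sided, call at adjusted p under 0.05). Permutations with 100000 resamples ran in Python 3.11.15. Exact tests over all 12870 splits of the mice ran in R for single probes and in Python for the gap between probes. In simulated data for this comparison the test was checked before use.

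The members and lists were chosen with earlier results of these data known. Named genes were all members, up to 3 called genes per list by smallest p, the 8 genes most like Adipoq and the 3 most like each other member. Vldlr, Mlxipl, Scd2, Scd3, Pnpla2, Lipe, Ms4a1, Procr, C1qa, Mrc1, Vcam1, the genes with disagreeing probes and the B cell lists were named after their values were seen. The labels do not say what a shared replicate number marks, so the main fit had no replicate block. With group means removed, r of same-numbered mice was -0.19 to 0.19, which cannot settle whether the numbers mark pairs. Symbols from the array design were updated where a RefSeq accession matched the reference table (28026 probes).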

Additional observations from a re-analysis of the deposited data

Results flagged for a closer look

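In 26 groups of 8 mice (13 probes, 2 groups each), 2 values lay apart from the other 7 by more than Dixon's 95% critical value allows. Chance flags about 1 in 20 groups. The dimmer Cidec probe was at -4.38 in KO chimera 2, against -6.06 for the next KO chimera, and no array was well above background for this probe. KO chimera 2 had the lowest 75th percentile of all arrays (127). Pparg was at -0.996 in control 2, against -0.49 for the next lowest control. The causes were not tested.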

How the results depend on the processing

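Of the 10 kept member probes, none but Scd1 passed under any of the settings tried, and Scd1 was negative in 32 of 32, passing in 20. The count of member probes that fell was 0 instead of 1 with the 75th percentile taken over probes detected on all arrays, without the filter on dim probes, within scan day 1, within scan day 2 and at a threshold of 0.01, and it ran from 0 to 1 when 1 mouse was left out. With the replicate number as a block it was also 0 (Scd1 adjusted p from limma = 0.0632), and what a shared number marks is not known. Over all kept probes the calls numbered 2453 within scan day 1, 3459 within scan day 2 and 4430 at a threshold of 0.01, against 7696. The median member difference was 0.018 within scan day 1. Correlated member pairs numbered 1 within scan day 2 (Plin4 with Lpl, r = -0.81) and 5 with slide means removed, against 0; that removal takes up degrees of freedom that the permutation does not count. Fabp4 and Pparg changed sign in 1 setting and Cfd in 6. Fits within a scan day hold 4 mice per group, and signal over background limits Plin1, Cidec, Adipoq and Cfd. The cause of each shift was not tested.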
